A study of Mus musculus with 2 samples.

Results

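The 10 genes described here, *Arg1*, *Mrc1*, *Mgl2*, *Retnla*, *Chil3*, *Clec10a*, *Il4ra*, *Folr2*, *Lyve1* and *Nos2*, were taken by name from the 22337 gene symbols of a single-cell RNA-Seq (scRNA-Seq) matrix of 4441 cells from mouse heart transplants. Each gene was followed across the 14 cell types that the authors annotated and across the 6 transplanted hearts. In both groups the donor strain was Bm12, which differs from C57BL/6 (B6) in the MHC class II molecule I-A, and the recipients were B6 mice. Hearts 1, 2 and 3 were IL-33+ (labelled WT on the Bm12 background), hearts 4, 5 and 6 were IL-33- (labelled IL33 KO on the same background), and all were taken at postoperative day 14, which left 3 hearts per group. Every donor cell of an IL-33- graft lacked the cytokine by label, while the recipient's infiltrating cells did not, and donor and recipient cells could not be told apart in the files. The age of the mice and how hashtag reads were turned into a heart for each cell were not given in the sources used here.

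Macrophages change their gene programs with the signals around them. In alternative activation, IL-4 or IL-13 binds a receptor that contains the IL-4 receptor α chain (*Il4ra*), STAT6 is phosphorylated, and genes for arginine use, lectin receptors and secreted proteins are transcribed. In the mouse, *Arg1* (arginase 1, which turns arginine into ornithine and urea), *Retnla* (the secreted resistin-like molecule α) and *Chil3* (the secreted chitinase-like protein Ym1) are the textbook readouts. *Mrc1* (the mannose receptor CD206), *Mgl2* (CD301b) and *Clec10a* (CD301a) encode C-type lectin receptors of macrophages and dendritic cells. *Folr2* (folate receptor β) and *Lyve1* (a hyaluronan receptor also found on lymphatic endothelium) mark macrophages that reside in tissue, the heart included. *Nos2* encodes the inducible nitric oxide synthase, which uses arginine for nitric oxide and marks the opposite, classical state.

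All cells came from 1 pooled library of hashtagged cells, so the hearts shared their reagents, and heart 2 with 230 cells and heart 5 with 284 cells were the smallest while heart 3 gave 1666. The hearts held 908130 to 7012945 unique molecular identifiers (UMIs, each 1 captured RNA molecule), and single cells held 1500 to 14977. Macrophages numbered 192, 10 and 98 in the IL-33+ hearts and 71, 21 and 37 in the IL-33- hearts, 429 in all. Of these 344 (80.2%) held UMIs of 3 or more of 9 macrophage markers, against 36.3% of the 204 monocyte-derived dendritic cells (Mo-DCs), 79.2% of the 154 monocytes, 7.60% of the 171 conventional dendritic cells (cDCs) and 1.5% of the 931 NK cells. The median depth was 2310 UMIs in Mo-DCs and 6606 in macrophages, and by level the 9 markers overlapped between both types, at 1866 to 9456 CPM (UMIs of a gene scaled to the same total in every cell) and 3783 to 8295 CPM over the hearts. Of the 204 Mo-DCs, 34 held 4 or more of 8 neutrophil markers. In the type named unconventional T cells, both T cell markers and macrophage markers (2 or more of each) were present in 61 of 83 cells (73.5%), and the median cell held 10175 UMIs. *Il33* in fibroblasts measured 24.3, 0 and 50.7 CPM in hearts 1 to 3 and 32.6, 73.8 and 16.1 CPM in hearts 4 to 6. These reads come from transcript 3′ ends, and where they lie relative to the deleted part was not given in the sources used here, so *Il33* did not check the labels.

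Across types, 7 of the 10 genes had most of their UMIs in macrophages, *Chil3* was shared among myeloid types, *Il4ra* was present in every type, and *Lyve1* had more UMIs in fibroblasts than in macrophages. A level below is the mean over a type's cells in a heart of each cell's CPM. Macrophages held 69.1% of the 1521 *Arg1* UMIs, 71.3% of the 2150 *Mrc1* UMIs, 73.2% of the 1063 *Mgl2* UMIs, 68.3% of the 2854 *Retnla* UMIs, 76.4% of the 55 *Folr2* UMIs and 54.4% of the 57 *Nos2* UMIs. They held 55.5% of the 943 *Clec10a* UMIs and 37.6% of the 813 *Chil3* UMIs, and macrophages, monocytes, Mo-DCs and cDCs together held 87.2% and 90.3%. *Il4ra*, with 3541 UMIs in 1932 cells, had 15.4% in macrophages and 32.4% in the 4 myeloid types. *Lyve1* had 56 UMIs, 39.3% in macrophages and 46.4% in cells annotated as fibroblasts. In the heat map of levels, the macrophage, Mo-DC and unconventional T cell columns carry the high values of *Arg1*, *Mrc1* and *Retnla*, cDCs join them for *Mgl2* and *Clec10a*, and monocytes stand out for *Chil3*.

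**Figure D1:**
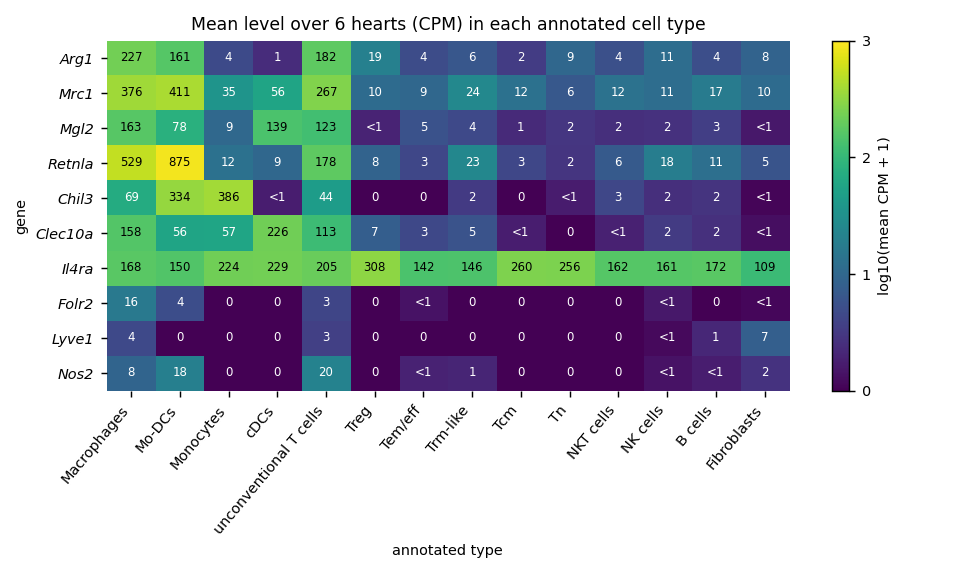
Heat map of the level of the 10 genes (rows) in the 14 annotated types (columns), as mean CPM over 6 hearts. *Arg1* averaged 227 CPM in macrophages, 182 CPM in unconventional T cells and 161 CPM in Mo-DCs, and at most 19.1 CPM in any other type.

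The levels of neighbouring types mostly overlapped from heart to heart. *Arg1* averaged 227 ± 160 CPM (SD, n = 6 hearts) in macrophages, 182 ± 218 CPM in unconventional T cells and 161 ± 105 CPM in Mo-DCs, ranges that overlapped, and the next type, Treg, at 19.1 ± 7.34 CPM was below Mo-DCs in 6 of 6 hearts. *Mrc1* averaged 411 ± 194 CPM in Mo-DCs, 376 ± 192 CPM in macrophages and 267 ± 98.9 CPM in unconventional T cells, which overlapped, and the lowest heart of unconventional T cells (137 CPM) was above the highest heart of cDCs (113 CPM), the next type. *Mgl2* was at 163 ± 100 CPM in macrophages and 139 ± 63.3 CPM in cDCs, and macrophages were higher in 4 of 6 hearts. *Clec10a* reversed that order at 226 ± 114 CPM in cDCs and 158 ± 63.6 CPM in macrophages, and cDCs were higher in 4 of 6 hearts. *Retnla* averaged 875 ± 1372 CPM in Mo-DCs and 529 ± 299 CPM in macrophages, with Mo-DCs higher in 2 of 6 hearts. These orders describe the annotated types, which were themselves built from gene expression, so no test was made between types.

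Detection in NK cells is given beside that in macrophages for comparison. Whether the UMIs in NK cells came from their own RNA, from RNA of other cells or from mislabelled cells was not tested. With each cell thinned to 1500 UMIs, 32.6% of macrophages and 1.89% of NK cells were positive for *Mrc1*, 21.3% and 1.35% for *Arg1*, 16.0% and 0.373% for *Mgl2*, 15.2% and 0.450% for *Clec10a*, 7.29% and 1.94% for *Retnla*, and 7.05% and 0.391% for *Chil3*. Unthinned, 221 of 429 macrophages (51.5%, exact Clopper-Pearson 95% interval 46.7% to 56.3%) held *Mrc1*, 150 (35.0%, 30.5% to 39.7%) held *Arg1* and 42 (9.79%, 7.15% to 13%) held *Retnla*, intervals that cover counting error only. For *Il4ra* the thinned share was 22.1% in macrophages and 18.4% in NK cells, so that gene did not separate the types by detection. For *Folr2* (1.78% and 0.103%), *Lyve1* (0.749% and 0.0817%) and *Nos2* (1.01% and 0.0555%) few cells were positive anywhere. Of the 8 genes other than *Il4ra* and *Nos2*, at least 1 was detected in 76.2% of macrophages and at least 3 in 29.1%, against 10.5% and 0.107% of NK cells, whose median depth was 2712 UMIs. Monocytes, at a median of 6709 UMIs, had at least 1 of the 8 in 59.1% and at least 3 in 3.9%.

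Compared heart by heart, *Chil3* had the opposite order in macrophages and monocytes from the other activation genes. *Arg1*, *Mrc1*, *Retnla*, *Clec10a* and *Folr2* had higher levels in macrophages in 6 of 6 hearts, and *Mgl2* in 5 of 6. *Mrc1* stood at 19.8, 40.3 and 33.1 CPM in monocytes of the IL-33+ hearts and 33.4, 53.9 and 26.6 CPM in those of the IL-33- hearts, below the 81.9 CPM of the lowest macrophage heart. *Arg1* had 12 UMIs in 7 of 154 monocytes, and *Folr2*, *Lyve1* and *Nos2* had 0 UMIs, which by counting error alone allows up to 1.95% of monocytes with a UMI and sets no limit on cells that express the genes. *Chil3* was higher in monocytes in 5 of 6 hearts, and *Il4ra* was higher in each type in 3 hearts.

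The comparison of graft groups asks how levels in IL-33+ and IL-33- hearts differ. In macrophages, *Il4ra*, *Arg1*, *Mrc1*, *Mgl2*, *Retnla* and *Clec10a* measured 1.53 to 2.40 times as high in IL-33+ hearts, but none passed the threshold after adjustment. These 6 are named because each had an unadjusted limma p of 0.05 or less. *Chil3*, also a textbook readout, measured 1.70 times as high (limma unadjusted p = 0.15). Levels were compared with limma on log2(CPM + 10), which understates the change of low genes. Of 9683 genes tested in macrophages, 0 had an adjusted p (Benjamini-Hochberg) of 0.05 or less (0%), and limma-voom on summed UMIs also called 0. At an unadjusted p of 0.05 or less, 391 genes (4.04%) passed, 176 of them (1.82%) higher and 215 (2.22%) lower in IL-33+ hearts. Among the 9 of the 10 genes that reached the minimum for testing, 6 had such a p, all 6 higher in IL-33+ hearts, and the adjusted p was 0.987 for each. The log2 fold change was above 0 for 8 of the 9, against 45.3% of all genes, and its median was 0.76, against -0.05 over all genes tested. With 1 heart left out the log2 fold changes of the 6 stayed above 0, between 0.33 and 1.83, but the sizes of *Mrc1*, *Mgl2* and *Retnla* moved by more than 1.5 times, as given with each. Genes with similar distributions over cells do not vary independently, and the 9 genes were picked with earlier results of these data known.

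*Il4ra*, the receptor chain, measured 193, 225 and 194 CPM in macrophages of the IL-33+ hearts and 150, 101 and 144 CPM in those of the IL-33- hearts. The groups did not overlap, as for 3.82% of all genes in this direction, and the exact permutation test gave p = 0.1, the smallest that 3 hearts against 3 allow. The log2 fold change was 0.61 (SE 0.26, limma unadjusted p = 0.029). The share of macrophages with an *Il4ra* UMI after thinning did not overlap either, at 24.2%, 29.2% and 22.1% against 19.6%, 13.7% and 18.9%. Unthinned, the shares overlapped, at 64.6%, 80% and 56.1% against 59.2%, 47.6% and 54.1% (exact permutation p = 0.2). *Il4ra* was the most evenly spread of the 10 genes, and its highest macrophage held 2.20% of the 546 UMIs.

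*Arg1* measured 453, 127 and 404 CPM in macrophages of the IL-33+ hearts and 106, 185 and 88.4 CPM in those of the IL-33- hearts. Hearts 1 and 3 were high, and heart 2, with 10 macrophages and 9 *Arg1* UMIs, lay among the IL-33- hearts. The log2 fold change was 1.19 (SE 0.37, limma unadjusted p = 0.0046), and the exact permutation p was 0.2. Without the macrophage highest for *Arg1* in each heart, a choice made after seeing the data, the levels were 427, 0 and 349 CPM against 79.1, 89.0 and 45.4 CPM and the log2 fold change was 0.56. Of the 11 cells in the matrix with 20 or more *Arg1* UMIs, 9 were macrophages and 2 were annotated as unconventional T cells. *Nos2*, its competitor for arginine, measured 5.00, 0 and 13.1 CPM against 24.8, 6.76 and 0 CPM, with 31 UMIs in 10 macrophages. The *Nos2* log2 fold change of -0.25 (SE 0.48, limma unadjusted p = 0.60) was within the spread between hearts, and 14 of the 16 UMIs of heart 4 came from 1 cell.

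The 3 lectin receptor genes had similar differences. *Mrc1* measured 676, 398 and 404 CPM in IL-33+ hearts and 300, 81.9 and 394 CPM in IL-33- hearts, groups that did not overlap, although hearts 2 and 6 lay within 4 CPM of each other. Its log2 fold change was 1.11 (SE 0.38, limma unadjusted p = 0.0085). *Mgl2* measured 312, 220 and 125 CPM against 188, 19.1 and 116 CPM, an overlap at heart 4, with a log2 fold change of 1.26 (SE 0.49, limma unadjusted p = 0.017). *Clec10a* measured 204, 250 and 132 CPM against 137, 161 and 65.3 CPM, with a log2 fold change of 0.69 (SE 0.32, limma unadjusted p = 0.046). Heart 5 was the lowest of the 6 for *Mrc1* and *Mgl2*, and without it their log2 fold changes were 0.46 and 0.45. Heart 6 was the lowest for *Clec10a*, whose value was 0.33 without it. Without the highest cell of each heart the *Mrc1* groups overlapped, at 646, 230 and 361 CPM against 255, 51.8 and 333 CPM, with a log2 fold change of 1.13, and the values were 1.04 for *Mgl2* and 0.80 for *Clec10a*. In NK cells, where 33 *Mrc1* UMIs were found, the *Mrc1* groups lay apart in the same direction. They measured 12.3, 14.7 and 15.7 CPM in IL-33+ hearts and 9.75, 8.42 and 4.97 CPM in IL-33- hearts. The log2 fold change there was 0.46 (limma unadjusted p = 0.24), and the share of all NK cell genes apart was not counted. Of the 50-base words in the last 500 bases of *Clec10a* transcripts, 15.6% also occur somewhere in *Mgl2* transcripts. Part of the *Clec10a* reads could thus have been dropped or shared. Of the words in the last 500 bases of *Mgl2*, 2.69% occur in any other gene.

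*Retnla* measured 758, 492 and 692 CPM in macrophages of the IL-33+ hearts and 241, 871 and 121 CPM in those of the IL-33- hearts. Heart 5 was the highest of all 6, and its 183 UMIs came from 1 cell of 21. The log2 fold change was 1.07 (SE 0.42, limma unadjusted p = 0.019), and it was 0.46 without heart 6 and 1.83 without heart 5. The share of macrophages with a *Retnla* UMI, which weighs each cell once, did not overlap between groups after thinning, at 9.59%, 10.0% and 6.45% in IL-33+ hearts and 4.37%, 4.76% and 3.87% in IL-33- hearts (exact permutation p = 0.1). The unthinned *Retnla* shares did not overlap either, at 13%, 10% and 9.18% against 5.63%, 4.76% and 5.41%. They rest on 25, 1 and 9 positive macrophages against 4, 1 and 2. With that 1 cell of heart 2 not positive, the groups would overlap. *Retnla* and *Il4ra* were the 2 of the 9 tested genes whose thinned shares did not overlap, against 4.05% of all genes in this direction, and 8 of the 9 had the higher mean share in IL-33+ hearts, against 46.5% of all genes. With the macrophage highest for *Retnla* left out of each heart, the level was 573, 0 and 261 CPM against 64.3, 0 and 7.98 CPM and the log2 fold change was 2.30. *Chil3*, the other secreted gene, measured 221, 26.5 and 50.8 CPM against 34.4, 59.1 and 24.2 CPM, with heart 1 alone high and a log2 fold change of 0.76 (SE 0.51, limma unadjusted p = 0.15). Without heart 1 the *Chil3* value was -0.00093.

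**Figure D2:**
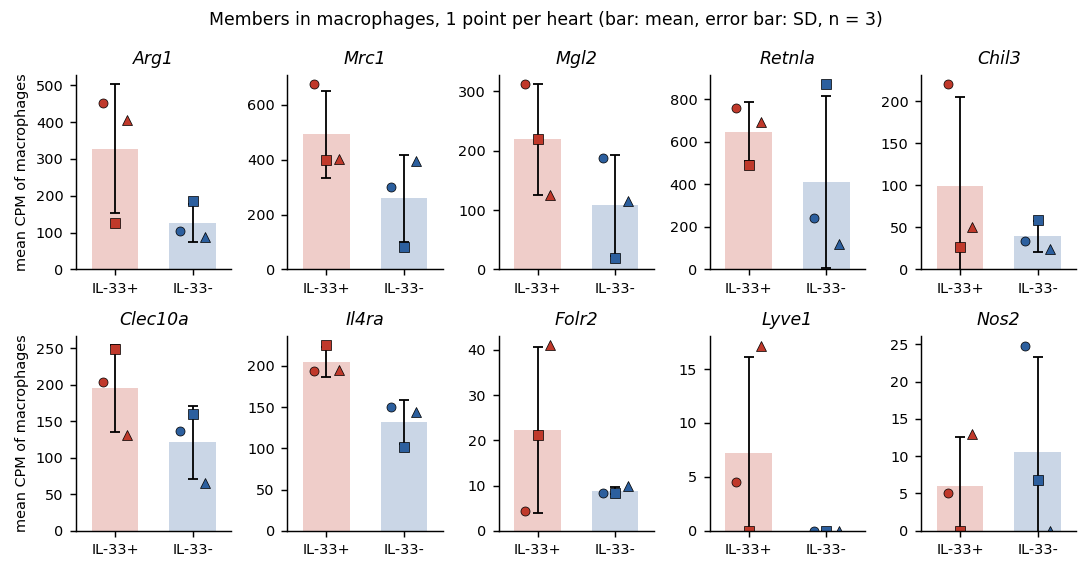
Level of each of the 10 genes in macrophages (vertical axes, mean CPM) by graft group, with 1 point per heart, bars at the mean and error bars of 1 SD (n = 3 hearts per group). *Il4ra* and *Mrc1* are the panels in which the 3 IL-33+ points lie above the 3 IL-33- points, and in the *Retnla* panel heart 5 (871 CPM) lies above every IL-33+ heart.

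*Folr2* and *Lyve1*, the genes of tissue-resident macrophages, were near the limit of detection. *Folr2* measured 4.38, 21.2 and 41.1 CPM in macrophages of the IL-33+ hearts and 8.33, 8.43 and 9.83 CPM in those of the IL-33- hearts, from 42 UMIs in 22 cells, of which heart 3 held 10. Its log2 fold change of 0.59 (SE 0.50, limma unadjusted p = 0.25) was within the spread between hearts. *Lyve1* had 10 macrophage UMIs in heart 1 and 12 in heart 3, in 9 cells, and 0 in the other 4 hearts, and it fell short of the minimum of UMIs in at least 3 hearts. With 22 UMIs in 9 cells, *Lyve1* could not be compared between groups at this depth. The 0 of heart 2 rests on 10 macrophages and says little.

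Some of the other marker lists lay apart between the same hearts, and the rest overlapped. Summed over the list, 8 dendritic cell markers in macrophages measured 412 to 491 CPM in IL-33+ hearts and 244 to 376 CPM in IL-33- hearts, and 8 blood endothelial markers measured 76.0 to 119 CPM and 40.4 to 52.6 CPM, with all 8 genes of each list detected. Of 6 lymphatic endothelial markers 5 were detected, with *Reln* at 0, and they summed to 16.95 to 39.7 CPM and 48.5 to 133 CPM. The 9 macrophage markers overlapped between groups (3783 to 8295 CPM and 5132 to 8128 CPM), as did 8 monocyte markers (1836 to 2063 CPM and 1964 to 3061 CPM). The 8 neutrophil markers (*Ly6g* at 0) overlapped too, at 86.3, 39.4 and 141 CPM against 118, 2648 and 104 CPM, with heart 5 alone high. The part of these markers in the differences of *Arg1*, *Mrc1*, *Mgl2*, *Retnla*, *Clec10a* and *Il4ra* was not tested.

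*Retnla* was held by a small number of cells. In macrophages its 1949 UMIs lay in 42 cells, the highest cell held 300 UMIs (15.4%), the highest 5 held 59.3%, and the 14 cells with 20 or more held 91.9%. For comparison, the highest cell held 17% of the *Chil3* UMIs, 7.07% of the *Mgl2* UMIs, 5.74% of the *Clec10a* UMIs, 5.42% of the *Arg1* UMIs and 3.46% of the *Mrc1* UMIs. The 14 high cells fell 7, 1 and 3 in IL-33+ hearts and 1, 1 and 1 in IL-33- hearts, so each group's *Retnla* level rested on a few cells. In the plot of cumulative UMIs, the *Retnla* curve reaches 80.1% at 8 macrophages, where *Il4ra* stands at 11.7%.

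**Figure D3:**
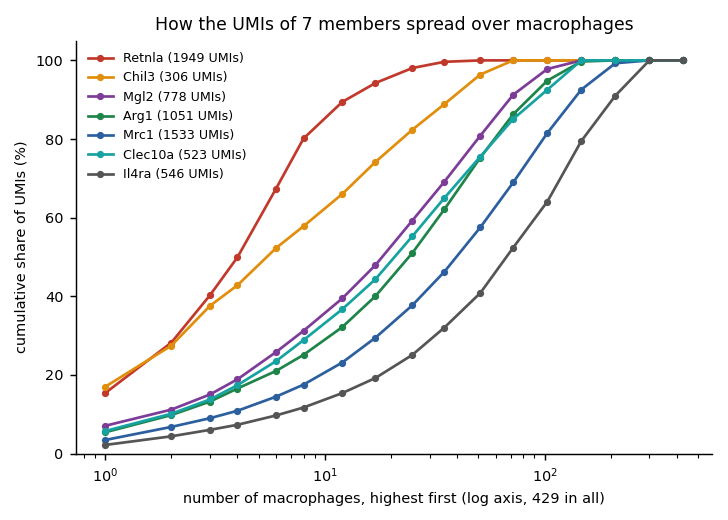
Cumulative share of each gene's macrophage UMIs (vertical axis, percent) against the number of macrophages taken from the highest down (horizontal log axis, 429 in all), for 7 genes. At 8 cells the curves stand at 80.1% for *Retnla*, 25.1% for *Arg1*, 17.5% for *Mrc1* and 11.7% for *Il4ra*.

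Most of the cells high in *Retnla* also held *Arg1*, *Mrc1* and *Mgl2*, and fewer held the other members. Over all types, 21 cells held 20 or more *Retnla* UMIs, 14 of them macrophages, 5 Mo-DCs and 2 unconventional T cells, and together they held 85.8% of all *Retnla* UMIs. All 21 held 3 or more macrophage markers and *C1qa* (a complement subunit of mature macrophages), 17 held *Arg1*, 17 held *Mrc1*, 13 held *Mgl2*, 8 held *Clec10a*, 8 held *Folr2*, 6 held *Chil3*, 4 held *Lyve1* and 2 held *Ly6c2* (Ly6C, of inflammatory monocytes). Among macrophages, 13 of the 14 high cells held *Mrc1*, 12 held *Arg1* and 7 held *Folr2*, against 48.6%, 31.5% and 3.36% of the 387 macrophages with no *Retnla* UMI. The median depth was 7688 UMIs in the 14 cells and 6555 in the 387. In Mo-DCs *Retnla* measured 1100, 0 and 451 CPM in IL-33+ hearts and 152, 0 and 3546 CPM in IL-33- hearts, a spread over hearts that exceeded the difference of the groups (log2 fold change -0.06, SE 0.69, adjusted p = 1.00 with limma). Heart 6, at 3546 CPM, had 17 Mo-DCs, 2 of which held 208 of its 228 UMIs.

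The promoters of *Retnla* and *Chil3* are printed because, among the 7 members with at least 100 macrophage UMIs, these secreted genes had the largest share of UMIs in 1 cell, and because both held a STAT-type motif in the window searched. The sequences are RefSeq's for GRCm38.p6, 6 of the 10 genes had an entry, and *Arg1*, *Clec10a*, *Lyve1* and *Nos2* had none. *Retnla* is at chr16:48842551-48844461 on the plus strand and *Chil3* at chr3:106147554-106167564 on the minus strand. The stretches below lie upstream of those genes, at chr16:48842359-48842550 (192 bases) and chr3:106167565-106167814 (250 bases), 5′ to 3′ on the gene's strand, with the motif in capitals. RefSeq's *Retnla* start lies 58 bases inside that gene, so the last 58 of the 250 bases searched are not shown.
Retnla: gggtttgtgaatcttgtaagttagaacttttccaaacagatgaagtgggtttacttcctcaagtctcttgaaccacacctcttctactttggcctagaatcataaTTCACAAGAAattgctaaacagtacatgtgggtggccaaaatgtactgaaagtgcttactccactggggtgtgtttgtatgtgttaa
Chil3: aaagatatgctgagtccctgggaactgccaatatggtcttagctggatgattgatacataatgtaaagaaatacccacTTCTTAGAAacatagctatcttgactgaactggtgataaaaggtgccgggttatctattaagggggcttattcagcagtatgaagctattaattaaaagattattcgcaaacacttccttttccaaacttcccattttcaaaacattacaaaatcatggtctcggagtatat
The letters TTCNNNNGAA, which read the same on both strands, occur in the *Retnla* stretch, 87 bases before the gene given above (145 before RefSeq's start), and in 5.86% of the 27025 promoters searched over 250 bases. The letters TTCNNNGAA occur in the *Chil3* stretch, 172 bases before the gene, and in 7.18% of promoters. Neither was present in the windows of *Mrc1*, *Mgl2*, *Il4ra* and *Folr2*. A match is a description of letters and not of a bound site.

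*Chil3* was the 1 gene of the 10 that passed the adjusted threshold in any type, in Mo-DCs, where it was lower in IL-33+ hearts. In the 9 types outside the myeloid and unconventional T cells, 26 tests over the 10 genes gave 0 calls with limma or limma-voom and 0 with an unadjusted p of 0.05 or less, against 4.67% of all tests there, and adjusted calls over all genes came to 0.0187% in fibroblasts, 0.0128% in Trm-like cells and 0% in the other 7. It measured 143, 0 and 38.2 CPM in Mo-DCs of the IL-33+ hearts and 858, 441 and 528 CPM in those of the IL-33- hearts, from 12, 0, 15, 105, 6 and 30 UMIs. The groups did not overlap, as for 3.56% of all genes in this direction, at 60.2 ± 73.7 CPM and 609 ± 220 CPM (exact permutation p = 0.1, n = 3 hearts each), and the log2 fold change was -3.83 (SE 0.72, limma adjusted p = 0.000308). Of 5698 genes tested in Mo-DCs, 4 (0.0702%) were called. In the same cells 7 NK cell markers summed to 248 to 623 CPM in IL-33+ hearts and 104 to 157 CPM in IL-33- hearts (*Klrb1c* at 0), 7 group 2 innate lymphoid cell markers to 83.0 to 104 CPM and 0 to 15.6 CPM (4 of the 7 at 0), and 5 eosinophil markers to 0 to 31.9 CPM and 33.4 to 138 CPM (*Ear1* and *Ear6* at 0), and their part was not tested. Hearts 2 and 5 had 4 and 7 Mo-DCs, and without heart 4 the adjusted p was 0.0762, while without heart 2 the log2 fold change was -2.79 and without heart 1 it was -4.76.

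The *Chil3* UMIs of Mo-DCs came from 20 of 204 cells, and many of these cells carried neutrophil RNA. The 34 Mo-DCs with 4 or more of 8 neutrophil markers (2, 1, 19, 10, 1 and 1 by heart) held 0, 0, 10, 105, 5 and 0 *Chil3* UMIs, and the other Mo-DCs held 12, 0, 5, 0, 1 and 30. In heart 4 all 105 UMIs lay in 4 cells, with 33, 32, 24 and 16 UMIs, and each of those cells held 296 to 791 UMIs of *S100a8* (a calgranulin of neutrophils and monocytes). The same 4 cells held 132 to 207 UMIs of *Camp* and 91 to 129 of *Ltf*, granule genes of maturing neutrophils that were looked up after the values were seen. *Camp*, *Ltf* and *Ngp* were each detected in 5 of the 20 Mo-DCs with *Chil3* and in 2, 2 and 3 of the 184 without. The 8 neutrophil markers, all detected, summed to 1651 to 8623 CPM in Mo-DCs of IL-33+ hearts and 1478 to 71109 CPM in those of IL-33- hearts. Heart 6 went against this pattern, since 28 of its 30 *Chil3* UMIs came from 1 cell with 0 neutrophil markers, 3 macrophage markers and 2 monocyte markers. Over its Mo-DCs, 7 basophil and mast cell markers summed to 4208 CPM in heart 6. In the IL-33+ hearts they summed to 0 to 79.0 CPM, and in hearts 4 and 5 to 0 CPM. The part of these markers was not tested. Without the 34 cells, a choice made after seeing the data, *Chil3* measured 151, 0 and 18.2 CPM against 0, 77.4 and 561 CPM, the groups overlapped (exact permutation p = 0.7), and the log2 fold change was -1.15 (limma adjusted p = 1.00).

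**Figure D4:**
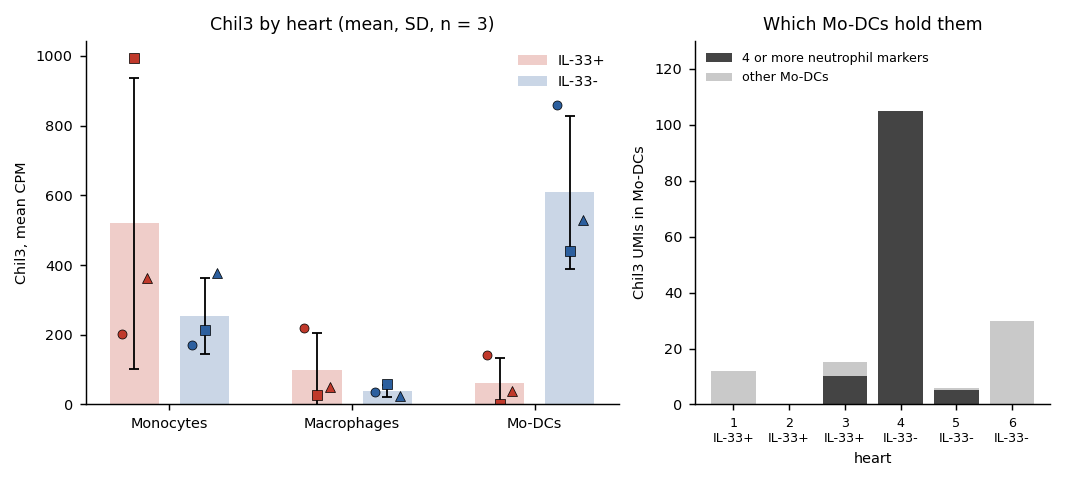
Left, *Chil3* level (mean CPM) in monocytes, macrophages and Mo-DCs by graft group, with 1 point per heart, bars at the mean and error bars of 1 SD (n = 3). Right, *Chil3* UMIs in Mo-DCs of each heart, split into cells with 4 or more neutrophil markers (dark) and other cells (light), where the 105 UMIs of heart 4 are all dark and the 30 of heart 6 all light.

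In monocytes, where *Chil3* was most widely detected, the groups overlapped. *Chil3* measured 202, 993 and 363 CPM in monocytes of the IL-33+ hearts and 170, 213 and 376 CPM in those of the IL-33- hearts, with UMIs in 64 of 154 cells (41.6%). Heart 2, the highest, had 5 monocytes, and 8 monocyte markers, all detected, summed to 4682 to 5614 CPM in IL-33+ hearts and 5896 to 6348 CPM in IL-33- hearts, whose part was not tested. The log2 fold change was 0.79 (SE 0.35, limma unadjusted p = 0.030, adjusted p = 0.965), among 347 genes (4.87%) with such an unadjusted p, while 1 of 7123 genes (0.014%) was called in monocytes. The group difference of *Chil3* differed between macrophages and Mo-DCs by 4.59 on the log2 scale (SE 0.75, limma unadjusted p = 0.000166, adjusted p = 0.991), and between monocytes and Mo-DCs by 4.61 (unadjusted p = 0.0068, adjusted p = 0.953). These were the 2 of 25 such differences tested over the 10 genes with an unadjusted p of 0.05 or less, against 3.85% of all genes over the 3 pairs of types, and both rest on the same *Chil3* values of Mo-DCs. After adjustment 0 of the 25 passed, and 0% of all genes. In the last 500 bases of its transcripts 15.4% of the 50-base words of *Chil3* also occur in *Chil4*, the gene of Ym2, which had 1 UMI in all cells.

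Conventional dendritic cells carried the lectin genes *Clec10a* and *Mgl2* with few UMIs of *Arg1*, *Chil3* or *Retnla*. In cDCs *Clec10a* measured 232, 167 and 217 CPM in IL-33+ hearts and 102, 439 and 197 CPM in IL-33- hearts, and *Mgl2* measured 214, 105 and 59.9 CPM and 116, 217 and 120 CPM. Both sets overlapped between groups, with log2 fold changes of -0.03 (SE 0.39) and -0.35 (SE 0.41). *Arg1* had 4 UMIs, *Chil3* 1 and *Retnla* 16 in the 171 cDCs. None of the 5 genes tested in cDCs was called by limma (0 of 7950 genes called, 0%), and none had an unadjusted p of 0.05 or less, against 6.79% of all genes. In Mo-DCs *Mrc1* measured 569, 340 and 277 CPM against 139, 659 and 482 CPM, and *Arg1* measured 329, 94.0 and 194 CPM against 22.4, 193 and 134 CPM, again with overlap. *Nos2* in Mo-DCs came to 4 UMIs, all in IL-33+ hearts and 1 to a cell. Those hearts had 37, 4 and 111 Mo-DCs, against 28, 7 and 17 in the IL-33- hearts.

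Among the types in which *Arg1* was tested, its largest fold change lay in the cells annotated as unconventional T cells. There *Arg1* measured 352, 93.2 and 548 CPM in IL-33+ hearts and 35.9, 37.4 and 22.8 CPM in IL-33- hearts, with 90, 2, 134, 7, 3 and 1 UMIs. The groups did not overlap (3.68% of all genes in this direction), the log2 fold change was 2.73 (SE 0.57, limma unadjusted p = 4.03e-05), and the adjusted p of 0.0989 missed the threshold, whereas without heart 2 the value was 3.44 (adjusted p = 0.00296). Of 7356 genes tested in this type 2 (0.0272%) were called and 334 (4.54%) had an unadjusted p of 0.05 or less, among them 2 of the 8 genes tested here, *Arg1* and *Mgl2*. All 237 *Arg1* UMIs were in cells that held 2 or more macrophage markers, but most cells of this type did: 66 of the 83 (79.5%) held 3 or more. The highest 2 cells, with 51 and 36 UMIs, held 8 and 7 of the 9 macrophage markers and 5 and 2 T cell markers. Hearts 2 and 6 contributed 2 and 4 cells. The 9 macrophage markers, all detected, summed to 2155 to 3399 CPM in IL-33+ hearts and 3008 to 4804 CPM in IL-33- hearts of this type, and the 8 T cell markers overlapped as well (638 to 1694 CPM and 427 to 1333 CPM). *Mgl2* in the same type measured 111, 484 and 38.6 CPM against 64.6, 41.1 and 0 CPM (log2 fold change 2.08, SE 0.79, limma unadjusted p = 0.012, adjusted p = 0.984). *Mrc1* measured 339, 346 and 170 CPM against 241, 137 and 369 CPM, with a log2 fold change of 0.22 (SE 0.40). Whether these droplets held a T cell and a macrophage together was not tested, and no doublet caller was run.

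*Il4ra* was highest on average in Treg, Tcm and Tn, but not in every T cell type. The mean over 6 hearts was 308 ± 56.3 CPM in Treg, 260 ± 45.2 CPM in Tcm and 256 ± 93.2 CPM in Tn. It was 229 ± 82.5 CPM in cDCs and 224 ± 77.7 CPM in monocytes. Macrophages ranked 8 of the 14 types, at 168 ± 44.7 CPM. The lowest were Trm-like cells at 146 ± 79.2 CPM, Tem/eff cells at 142 ± 20.6 CPM and fibroblasts at 109 ± 75.7 CPM. Each of the 14 types overlapped its neighbour in the full order, and Treg were above Tcm in 4 of 6 hearts. Among the ligands, *Il13* had 153 UMIs, 119 of them in Tem/eff cells and 18 in Treg, and 121 of the 153 came from heart 1. *Il4* had 37 UMIs, 16 in Tem/eff cells and 8 in Treg.

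Which genes were found in the same macrophage differed by member. After thinning to 1500 UMIs, which gives the expected share for a fixed depth, 37.2% of macrophages with *Mrc1* and 13.7% of those without held *Arg1*. The same pair of shares was 29.0% and 9.68% for *Mgl2*, 16.2% and 2.97% for *Retnla* and 23.3% and 11.2% for *Clec10a*. For *Plac8*, a monocyte gene, the shares were 34.9% and 56.2%, for *C1qa* 62.9% and 37.2%, and for *Il4ra* 22.7% and 21.8%. Macrophages with *Retnla* went the same way, with *Mrc1* in 72.5% against 29.4%, *Arg1* in 49.5% against 19.1% and *Plac8* in 22.2% against 51.3%. In macrophages with and without *Chil3* the shares were 41.2% and 19.8% for *Arg1*, 62.0% and 48.2% for *Plac8*, 27.3% and 17.1% for *Ly6c2*, and 10.7% and 16.4% for *Mgl2*. These shares pool the cells of 6 hearts, of which heart 1 gave 192, and describe cells rather than replicates. Hearts with enough positive cells for a share of their own numbered 4 for *Mrc1*, 3 for *Retnla* and 2 for *Chil3*. The *Arg1* share was higher with the gene in 3, 3 and 2 of these. By level, *Arg1* was lower with *Chil3* in hearts 2, 3 and 6 (0, 211 and 0 CPM against 141, 437 and 96.2 CPM) and higher in hearts 1, 4 and 5. With *Mrc1*, the *Arg1* level was lower in heart 5 (34.1 CPM against 220 CPM) and higher in the others.

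**Figure D5:**
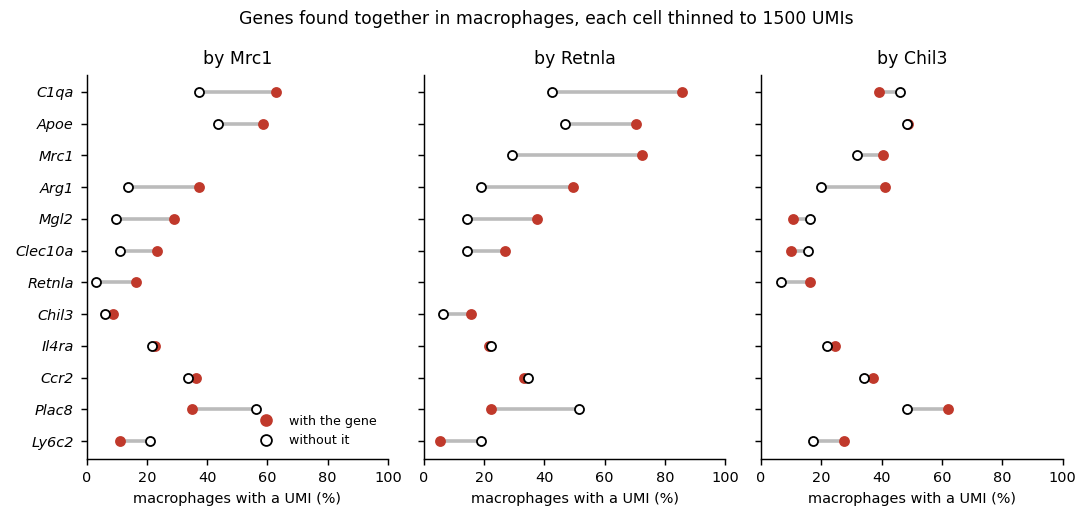
Percent of macrophages, thinned to 1500 UMIs, that held each other gene, in cells with and without a UMI of *Mrc1*, *Retnla* or *Chil3* (panels), pooled over 6 hearts. *Arg1* is higher in the cells with each of the 3 genes (37.2%, 49.5% and 41.2%), whereas *Plac8* is lower with *Mrc1* and *Retnla* and higher with *Chil3* (62.0% against 48.2%).

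The few cells with the resident genes are described by the other genes they held. How often the other macrophages held *F13a1*, *Cbr2*, *Cd163* or *Timd4* was not counted. Of all 429 macrophages, 51.5% held *Mrc1* and 35.0% held *Arg1*. The 22 macrophages with *Folr2* fell 5, 1 and 10 in IL-33+ hearts and 2, 2 and 2 in IL-33- hearts, and 19 held *Mrc1*, 13 *F13a1* (factor XIII subunit A) and 11 *Arg1*. The thinned share with *C1qa* was 99.1% in *Folr2* cells and 44.6% in the others, with *Plac8* 4.75% and 50.03%, and with *Ly6c2* 0% and 18.2%. These shares pool the hearts, and 1 heart had enough *Folr2* cells for a share of its own. All 9 macrophages with *Lyve1* held *Mrc1*, 8 held *F13a1*, 6 held *Folr2*, 6 held *Cbr2*, 5 held *Cd163* (the hemoglobin-haptoglobin scavenger receptor) and 2 held *Timd4*. The 7 cells annotated as fibroblasts with *Lyve1* came from hearts 3 and 4, held no *Mrc1* or *Folr2*, and 6 of them held 2 or more blood endothelial markers and 3 held 2 or more lymphatic markers. Of the 10 macrophages with *Nos2*, 5 also held *Arg1* and 5 held *Mrc1*, while none held *Folr2* or *Lyve1*.

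The other genes of the pathway were described by list, and the median log2 fold changes of the 5 lists in macrophages lay between -0.12 and 0.28. Of 21 genes of IL-4 and IL-13 signaling, 18 were tested in macrophages, 0 had an unadjusted p of 0.05 or less by limma in either direction, and the median log2 fold change was 0.06. Of 22 other alternative activation genes, 21 were tested, 3 were higher and 2 lower at an unadjusted p of 0.05 or less, and the median was 0.01. Of these, *Ccl24*, a chemokine for eosinophils that is named after its values were seen, measured 1041, 757 and 151 CPM in macrophages of IL-33+ hearts and 22.4, 151 and 68.5 CPM in those of IL-33- hearts. Hearts 3 and 5 were level, so the groups overlapped, and the log2 fold change was 2.77 (SE 0.54, limma unadjusted p = 4.95e-05, adjusted p = 0.239). All 10 arginine handling genes were tested, none had such a p, and the median was 0.15. Of 18 classical activation genes 16 were tested, 1 was higher and 2 were lower at that p, and the median was -0.12. Of 16 resident macrophage genes 14 were tested, 2 were higher and 1 was lower, and the median was 0.28. Over all 9683 genes tested in macrophages, 1.82% were higher and 2.22% lower in IL-33+ hearts at an unadjusted limma p of 0.05 or less. None of the list genes was called in macrophages after adjustment, and limma-voom called 0 of all 9683 genes.

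In macrophages, 3 genes of these lists lay apart between groups with a fold of at least 2, all higher in IL-33- hearts. The share of all genes that did so at that fold was not counted, so no weight is put on this count. At any fold the lists held genes apart in both directions. In IL-4 and IL-13 signaling 2 were higher and 3 lower in IL-33+ hearts. The counts were 1 and 1 for other alternative activation, 0 and 3 for classical activation, 1 and 0 for resident genes and 0 and 0 for arginine handling. Over all genes, 3.82% lay apart higher and 5.15% lower in IL-33+ hearts. *Il10*, an anti-inflammatory cytokine, measured 18.7, 21.2 and 38.0 CPM in macrophages of IL-33+ hearts and 61.2, 277 and 168 CPM in those of IL-33- hearts (log2 fold change -2.13, SE 0.43, limma adjusted p = 0.243). *Cxcl10*, an interferon-induced chemokine, measured 194, 42.3 and 241 CPM against 283, 299 and 257 CPM (adjusted p = 0.987). *Tyk2*, a Janus kinase, measured 36.1, 0 and 26.5 CPM against 45.1, 40.1 and 43.0 CPM (limma adjusted p = 0.987). The 0 CPM of *Tyk2* is from heart 2, which had 10 macrophages, and hearts 1 and 3 lay nearer to the IL-33- hearts. In monocytes *Cxcl9*, another interferon-induced chemokine, measured 178, 0 and 0 CPM against 240, 272 and 215 CPM and was called lower in IL-33+ hearts (log2 fold change -3.24, limma adjusted p = 0.0470), where hearts 2 and 3 had 5 and 15 monocytes. In Mo-DCs *Ccl8*, a chemokine of resident macrophages, was called higher (log2 fold change 3.36, limma adjusted p = 0.000308), but the hearts overlapped at 888, 1442 and 283 CPM against 23.1, 0 and 1062 CPM.

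Over the 14 types, the level of *Arg1* was most like those of *Ccl8*, *C1qc* and *C1qb* (Pearson r = 0.97, 0.96 and 0.96 of log2(CPM + 10)), and that of *Mrc1* most like *C1qa*, *C1qb* and *Gatm* (0.97, 0.96 and 0.96). *Retnla* was most like *C1qa*, *Ccl8* and *Mrc1* (0.97, 0.96 and 0.95), and *Mgl2* most like *Slamf9*, *Etv3* and *Gatm* (0.97, 0.95 and 0.95). *Chil3* was most like *Adgre4*, *Treml4* and *Trem1* (0.98 each), and *Clec10a* most like *9130230L23Rik*, *Cfp* and *Tnfrsf11a* (0.97 each). *Il4ra* had no close match, with *Tradd* at 0.79, *Zfp518a* at 0.77 and *Zfp729b* at 0.74. These correlations describe 14 points from 1 library with types of unequal depth, among 10072 genes with at least 100 UMIs, which *Folr2*, *Lyve1* and *Nos2* did not reach.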

How the data were processed

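Cells were isolated from 6 grafts, hashtagged by heart, pooled and sequenced in 1 10x 3′ library. The authors counted UMIs with Cell Ranger on mm10, filtered cells and normalized in Partek Flow 10.0.23.0425, and the deposited values are log2(CPM + 1). Hearts and cell types were taken from the deposited cell table. Because each cell's values are whole multiples of 1 UMI, UMI counts were recovered from them, and 99.9% of low values came out within 0.05 of a whole number. Columns of per-sample values not used numbered 0.

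For each gene, type and heart, CPM was averaged over cells. IL-33+ and IL-33- hearts (n = 3 each) were compared with limma 3.58.1 (R 4.3.3; eBayes with trend) on log2(mean CPM + 10), over genes with at least 10 UMIs and UMIs in at least 3 hearts, with Benjamini-Hochberg adjustment over all of them and a threshold of 0.05. This fit took the place of the authors' Partek test. Exact two-sided permutation tests over hearts cannot go below p = 0.1. Each heart is a separate graft, and with 1 library any effect of the library is shared by all. Shares of positive cells were thinned to 1500 UMIs by their expected value. No doublet caller was run. Scripts were tested on simulated data.

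Named genes were all 10 members, the 3 most alike over types, and, of 5 pathway lists, those called in macrophages, monocytes or Mo-DCs or apart by 2-fold without overlap in macrophages. Members and lists were chosen with earlier results of these data known. Alternatives were other pseudocounts (1 and 50 CPM), no filter, summed UMIs, limma-voom, median scaling, leaving out each heart, hearts with under 20 cells, or cells with T cell markers, and, added after seeing the data, leaving out Mo-DCs with neutrophil markers or the highest cell of each heart.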

Additional observations from a re-analysis of the deposited data

How the results depend on the processing

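In macrophages 0 of the 10 genes were called under any of the 15 alternatives, and 7 to 9 of them had a log2 fold change above 0. The count of called genes over the 14 types, 1 as reported (*Chil3* in Mo-DCs), was 2 with a pseudocount of 50 CPM and 2 with no filter on low counts (*Arg1* in unconventional T cells in addition), 0 with limma-voom, 3 with hearts of under 20 cells left out (*Arg1*, *Chil3* and *Retnla* in Mo-DCs, where this left hearts 1 and 3 against heart 4 alone, a lone heart assumed to vary like the others), 0 without cells holding 2 or more T cell markers, 0 without Mo-DCs holding 4 or more neutrophil markers (chosen after seeing the data), and 0 to 2 when 1 heart was left out. *Chil3* in Mo-DCs had a log2 fold change of -3.83, against -3.32 with limma-voom (adjusted p = 0.389), -2.85 without cells holding T cell markers (adjusted p = 0.467), -1.15 without cells holding neutrophil markers (adjusted p = 1.00), -2.34 with the highest cell of each heart left out (no test), and -4.76 to -2.79 with 1 heart left out, where the call was lost without heart 4. The cell filters remove *Chil3* UMIs by construction, 32 of heart 4 and 5 of heart 5 for T cell markers, and the cause of the limma-voom value was not tested. *Arg1* in unconventional T cells was called with a pseudocount of 50 CPM (1.99, adjusted p = 0.000492), with no filter (2.73, adjusted p = 0.000888), without heart 1 (2.53, adjusted p = 0.0494) and without heart 2 (3.44, adjusted p = 0.00296), and ranged from 2.22 to 3.44 with 1 heart left out. Without cells holding 2 or more macrophage markers, which most cells of this type held, it could not be fitted, since 0 UMIs were left. In macrophages, with 1 heart left out, *Arg1* ranged from 0.87 to 1.75, *Mrc1* from 0.46 to 1.53, *Mgl2* from 0.45 to 1.83, *Retnla* from 0.46 to 1.83, *Clec10a* from 0.33 to 0.93, *Il4ra* from 0.44 to 0.71 and *Folr2* from 0.17 to 1.08. There *Chil3* ranged from -0.00093 (without heart 1) to 1.33 with 1 heart left out. *Nos2*, at -0.25, was 0.047 without heart 2, which is also the fit without hearts of under 20 cells, 0.22 without heart 4 and 0.19 without the highest cell of each heart, and ranged from -0.68 to 0.22 with 1 heart left out. No paired analysis was possible because the labels number the hearts 1 to 6 and the groups share no number. Depth limits *Folr2*, *Lyve1* and *Nos2*, each under 100 UMIs, and every value of heart 2, with 10 macrophages, 4 Mo-DCs and 5 monocytes.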
